A study of Mus musculus with 19 samples.

Results

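The genes described here make microRNAs and carry out their work: Drosha and Dgcr8, Xpo5, Dicer1 and Tarbp2, the Argonautes Ago1, Ago2, Ago3 and Ago4, and Tnrc6a. These 10 genes were chosen by name and matched to Ensembl identifiers through GENCODE release M21, and all 10 were among the 19297 genes tested, out of 48709 gene entries in the count files. RNA-seq was performed on the CA1 region of the hippocampus of mice that were 7 months old, in 3 groups. WT control (n = 6) were wild-type littermates, APP control (n = 6) were APPPS1-21 mice, and APP anti-miR-mix (n = 7, called the mix group below) were APPPS1-21 mice whose dorsal hippocampus received lipid nanoparticles with inhibitors of miR-148a-3p, miR-181a-5p and miR-146a-5p. By the study's methods, both control groups received nanoparticles with a control oligonucleotide, although GEO's titles put the name of the inhibitor mixture before the words WT control. The transgenes of APPPS1-21 mice are under Thy1 regulatory sequence, which drives them mainly in neurons. Nothing in the labels says which libraries shared a litter or a day, so p-values measure the spread between these samples. Wild-type mice given the inhibitors were not analysed here, so the effect of the inhibitors was measured in transgenic tissue alone.

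A microRNA begins as a hairpin in a longer nuclear transcript. The nuclease Drosha and its RNA-binding partner Dgcr8, together the microprocessor, cut the hairpin out, Xpo5 (exportin-5) carries it to the cytoplasm, and Dicer1, assisted by Tarbp2, trims it to a short duplex. A single strand is then loaded into an Argonaute protein, where its seed, the bases next to its 5′ end, pairs with sites in messenger RNAs, mostly in 3′ UTRs. Tnrc6a (GW182) binds Argonaute and recruits the enzymes that shorten the poly(A) tail and decap the message. Of the Argonautes, Ago2 can itself cut a fully paired target. In neurons this machinery also works in dendrites, near synapses.

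The question asked of these genes was whether their transcripts differ with the APPPS1-21 transgenes and with inhibition of the 3 microRNAs. The microRNAs and the inhibitors are shown because every site named below is defined by them. Each mature microRNA is printed 5′ to 3′ from RefSeq with its seed, bases 2 to 8, in capitals. Each inhibitor is printed 5′ to 3′ with the bases that lie opposite the seed in capitals.
mmu-miR-146a-5p: uGAGAACUgaauuccauggguu
inhibitor of miR-146a-5p: acccatggaattcAGTTCTC
mmu-miR-148a-3p: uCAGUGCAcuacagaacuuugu
inhibitor of miR-148a-3p: caaagttctgtagTGCACT
mmu-miR-181a-5p: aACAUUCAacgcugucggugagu
inhibitor of miR-181a-5p: actcaccgacagcgtTGAATG
The inhibitor of miR-146a-5p was complementary to bases 2 to 21 of its microRNA and covered all 7 bases of the seed. Those of miR-148a-3p and miR-181a-5p started opposite base 3 and covered 6 bases of the seed. In RefSeq, 2 mature mouse microRNAs carry the seed of miR-146a-5p, 3 carry that of miR-148a-3p (with miR-148b-3p and miR-152-3p) and 4 carry that of miR-181a-5p (with miR-181b-5p, miR-181c-5p and miR-181d-5p). These mature sequences lie on GRCm38 (mm10) at chr11:43374435-43374456 for miR-146a-5p and chr6:51269829-51269850 for miR-148a-3p, and at chr1:137966468-137966490 and chr2:38852741-38852763 for the copies of miR-181a-5p.

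The genes of the inhibited microRNAs, and Mir146b of the same seed as Mir146, were close to unread in these libraries, whose kit selects poly(A) RNA. Mir146, Mir146b, Mir181a-1 and Mir181a-2 had 2, 1, 2 and 2 reads in all 19 libraries together, never more than 1 in a library. Mir148a had 0 reads in every library, which allows up to 3 reads a library, counting error only. The precursors were not detectable at this depth and were not tested, and mature microRNAs are not captured by such libraries.

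Several of the machinery genes carry seed matches to the inhibited microRNAs in their own 3′ UTRs. The longest annotated 3′ UTR of each gene was read for the exact 7 letters complementary to each seed, on the transcript strand only: AGTTCTC for miR-146a-5p, TGCACTG for miR-148a-3p and TGAATGT for miR-181a-5p, which do not overlap one another. TGCACTG occurred in 7 of the 10 genes (Dgcr8, Dicer1, Ago1, Ago2, Ago3, Ago4 and Tnrc6a) and in 14.9% of the 15397 tested genes with an annotated 3′ UTR. TGAATGT occurred in Dicer1, Ago2 and Ago3, against 18.1% of those genes, and AGTTCTC in Ago1 and Ago2, against 12.4%. Long 3′ UTRs hold more matches, and these genes span a wide range, from 169 bases in Drosha and 334 in Tarbp2 to 11064 in Ago2 and 12742 in Ago3, beside a median of 1161 over the tested genes. Among tested genes whose 3′ UTR is within 20% of the length of that of Ago4 (3682 bases), 30.4% held TGCACTG, and 15.6% did so at the length of Dgcr8 (1574 bases). At the lengths of Ago2 and Ago3 the shares were 63.9% of 61 genes and 61.1% of 36 genes. For TGAATGT the shares at like length were 38.3% for Dicer1, 86.9% for Ago2 and 94.4% for Ago3, and for AGTTCTC 33.5% for Ago1 and 65.6% for Ago2, so the matches in the longest 3′ UTRs are common for their length.

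The sites below are the TGCACTG match nearest the stop codon in each of the 6 genes that the study's list of TargetScan predictions gives as targets of miR-148a-3p, with 14 bases before and 1 after. They are shown to let the shared core be compared with its differing surroundings, and the match is in capitals.
Dgcr8: tttagtacactataTGCACTGa
Dicer1: gaagtttaatttttTGCACTGt
Ago1: tgttagccctgggtTGCACTGt
Ago2: tttcataggatctaTGCACTGa
Ago4: cagctcagaatggtTGCACTGa
Tnrc6a: tgagcttttaccttTGCACTGa
These stretches lie in GRCm38 at chr16:18255188-18255209 (minus strand, Dgcr8), chr12:104690351-104690372 (minus, Dicer1), chr4:126436306-126436327 (minus, Ago1), chr15:73105653-73105674 (minus, Ago2), chr4:126493109-126493130 (minus, Ago4) and chr7:123193312-123193333 (plus, Tnrc6a). An A follows the match shown for Dgcr8, Ago2, Ago4 and Tnrc6a, the arrangement in which a seed match is commonly taken to be stronger. The other TGCACTG match of Ago1, at base 4106, is also followed by an A. Ago4 held 3 matches, all starting within 555 bases of the stop codon, and Ago3, which the list does not give as a target, also held 3. Ago2 is also on the list for miR-181a-5p, with these matches to its seed, named by the distance of the match from the stop codon.
Ago2, base 2829: tgctttaagcaaacTGAATGTg
Ago2, base 4586: gagacctgaaggctTGAATGTa
Ago2, base 5106: tatttgtctcaagtTGAATGTa
They lie at chr15:73104072-73104093, chr15:73102315-73102336 and chr15:73101795-73101816 on the minus strand. Tnrc6a is also listed for miR-146a-5p, but its longest annotated 3′ UTR does not hold AGTTCTC. Xpo5, Drosha, Tarbp2 and Ago3 are not on the list, and Xpo5, Drosha and Tarbp2 held none of the 3 matches. A match is a description of the sequence and not evidence of a working site.

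**Figure D1:**
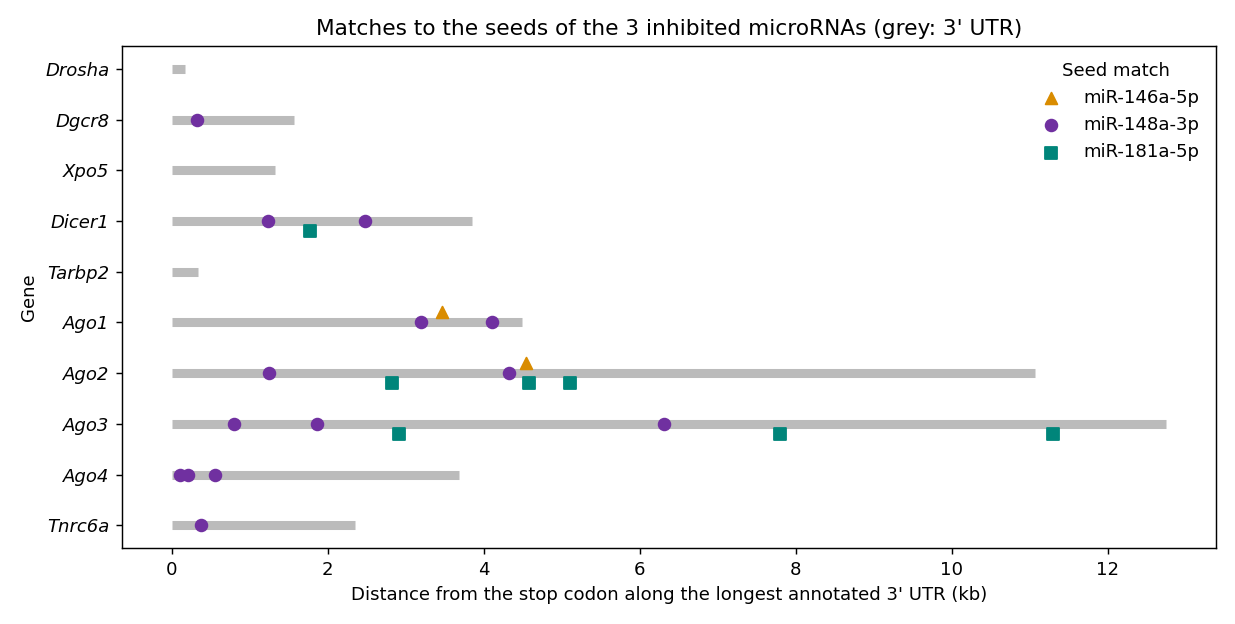
Position of each 7-letter seed match along the longest annotated 3′ UTR of each gene; the x axis is the distance from the stop codon in kb, grey bars are the 3′ UTRs, and marker shape and colour give the microRNA. Matches to miR-148a-3p occur in 7 genes, and Drosha, Xpo5 and Tarbp2 have no marker.

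The libraries held between 19362343 and 37018917 counts, and any of the 10 genes had between 293 and 5319 raw reads in a library, so none was near the detection limit. The CA1 markers Wfs1, Fibcd1, Pou3f1 and Mpped1 had median levels of 245.8, 149.5, 94.5 and 386.2 TPM (counts divided by exon length and scaled to a common total per library), while the markers of the dentate gyrus and CA3 had medians of at most 20.8 TPM (C1ql2, up to 53.0 in a library). The dentate gyrus score varied widely within groups, from 6.11 to 9.29 in WT control, with WT control 4 the highest, and up to 9.74 in APP control, and its median was 6.93 for WT control, 8.34 for APP control and 7.97 for the mix group (6.39, 6.99 and 6.27 for CA3). Microglial markers were far higher in the transgenic groups: 9 of 11 passed the test in APP control and 10 of 11 in the mix group, and the mean log2 score of the list ran from 9.07 to 10.05 among WT control libraries, 9.92 to 11.5 among those of APP control and 10.8 to 11.6 in the mix group. Of 6 astrocyte markers 1 passed in each transgenic group, Gfap, which was higher (log2 fold change 1.44 and 1.40). WT control 5 and mix library 6 stood apart in choroid plexus genes, with list scores of 7.68 and 7.21 against group medians of 5.61 and 5.56. Markers of endothelium (1 of 4 higher in each transgenic group), oligodendrocytes (0 of 5 called) and neurons (1 of 7 lower, Gad1) were called less often, a difference that was not tested, and no marker passed between the mix group and APP control. There the log2 fold changes of Wfs1, Fibcd1, Pou3f1 and Mpped1 were 0.58, -0.55, -0.15 and 0.013. The CA1 score used below averages over these opposite values. All 7 neuronal markers had values below WT control in both transgenic groups, with list scores of 14.5 to 14.7 among WT control libraries and 14.4 to 14.6 among the others. These are bulk tissue samples, in which fewer cells of a type and less RNA per cell cannot be told apart. The part of cell composition in the values below was not tested, other than by leaving libraries out.

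Per length, Drosha was the most abundant of the 10 transcripts and Ago4 the least. Over the 19 libraries the mean was 99.7 TPM for Drosha (SD 7.48) and 65.8 for Ago1 (SD 3.06). Tnrc6a, Xpo5 and Ago2 followed at 41.9, 39.7 and 40.1 TPM (SD 2.67, 2.67 and 2.70). Their ranges overlapped, and Tnrc6a exceeded Xpo5 in 15 libraries while Xpo5 exceeded Ago2 in 8 of the 19, so the order of these 3 was not resolved. Below them stood Ago3 at 23.8 and Dicer1 at 22 TPM (SD 1.71 and 1.09), which also overlapped, with Ago3 above Dicer1 in 15 libraries. Dgcr8 (15.8 TPM, SD 1.43), Tarbp2 (13.4, SD 1.33) and Ago4 (12.3, SD 0.914) closed the order, each overlapping its neighbour. The steps from Drosha to Ago1, from Ago1 to Tnrc6a, from Ago2 to Ago3 and from Dicer1 to Dgcr8 held in each of the 19 libraries. Among all tested genes Drosha stood at the 90.5th percentile in WT control and Ago4 at the 48.9th.

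The microprocessor partners were thus far apart, with Drosha above Dgcr8 by a wide margin although they act as a complex. The annotation of Drosha (ENSMUSG00000022191, chr15:12824815-12935291, plus strand) includes a transcript with a retained intron, and counts per gene do not show which exons hold the reads. The exons of Dgcr8 (ENSMUSG00000022718, chr16:18253948-18289246, minus) share 1319 bases with other annotated genes, among them Trmt2a on the opposite strand. The library kit does not mark strand, so reads there cannot be told apart and the level of Dgcr8 is uncertain. Ago2 shares 219 bases with Chrac1 on the opposite strand, Tnrc6a shares 143 with Gm45846 and Drosha 72 with Gm47288. Xpo5, Dicer1, Tarbp2, Ago1, Ago3 and Ago4 share none. Dividing by the longest transcript in place of all exons placed Dicer1 (30.4 TPM in WT control) and Dgcr8 (22.2) above Ago3 (19.9), so the place of Ago3 among them is not settled, while Dicer1 stood above Dgcr8 with either length.

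Among the Argonautes, Ago1 made up nearly as much of the summed level as the others together. In WT control it held 46.6% of the TPM of Ago1 to Ago4 (SD 1.42, n = 6), Ago2 28.5% (SD 1.13), Ago3 16.5% (SD 1.02) and Ago4 8.36% (SD 0.422). The division was nearly the same in APP control (46.5%, 27.8%, 16.7% and 8.90%) and the mix group (46.0%, 28.4%, 16.9% and 8.74%), and for each Argonaute the ranges of the 3 groups overlapped. The summed level was 145.0 TPM in WT control (SD 4.69), 140.0 in APP control (SD 7.05) and 141.0 for the mix (SD 4.44). Ago1, Ago3 and Ago4 lie side by side on the minus strand of chromosome 4 (chr4:126435012-126468583, chr4:126331704-126429556 and chr4:126489541-126533472) and yet differed in level by a wide margin, with Ago1 the highest of the cluster in every library. Ago2 lies apart at chr15:73095844-73184935.

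**Figure D2:**
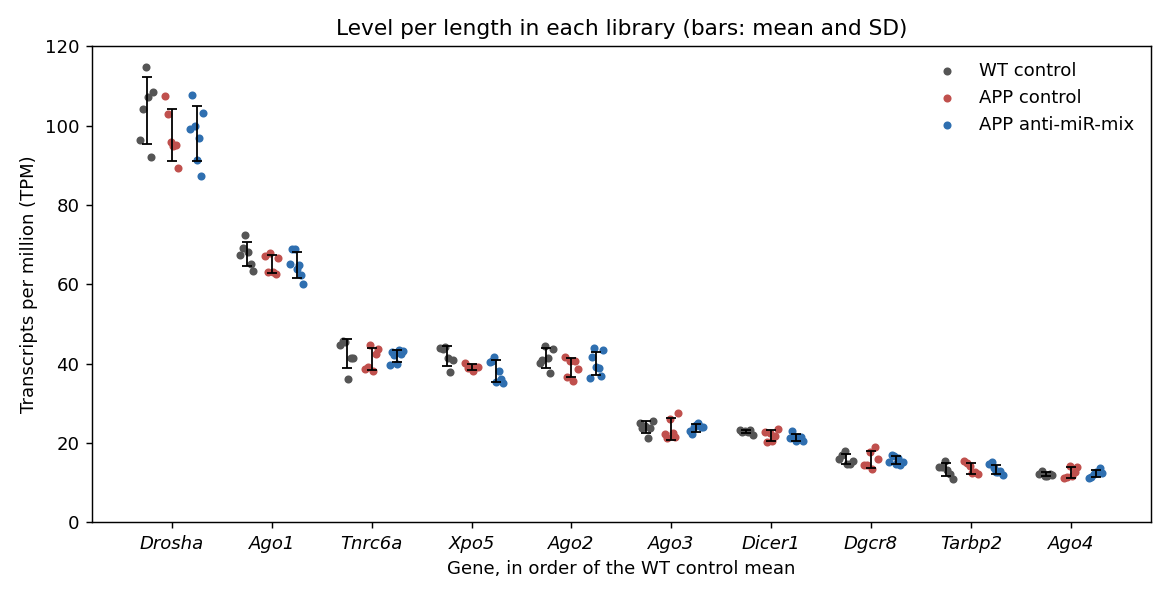
Level per length (TPM, y axis) of each gene in each of the 19 libraries, in order of the WT control mean; points are libraries, colours the 3 groups, and bars the mean and SD. Drosha (87.3 to 114.9 TPM) and Ago1 (60.0 to 72.3 TPM) stand clear of the rest, while Tnrc6a, Xpo5 and Ago2 overlap.

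Across the 3 comparisons 1 of the 10 genes passed the test, Xpo5, which was lower in the mix group than in WT control. In APP versus WT control 0 of the 10 were called by DESeq2, in a comparison where 4.71% of all tested genes were called (3.22% in edgeR). At an unadjusted p under 0.05, 1 of the 10 (Xpo5) was past the threshold, as were 2644 of all 19297 genes. The edgeR test and limma on the deposited table also called 0 of the 10, and limma called 1062 of its 18825 genes. In the mix group versus WT control 1 of 10 was called, beside 8.95% of all genes (3.36% lower), and edgeR called 0 of the 10 and 6.06% of all genes. With the mix group set against APP control 0 of 10 were called, and none had an unadjusted p under 0.05. There 0 of all 19297 genes (0.0%) passed in DESeq2, with 552 at an unadjusted p under 0.05, and 0 in edgeR, with 572. Groups that did not overlap at all were found for 0 of the 10 genes in APP versus WT control (1.57% of all genes) and in the mix group versus APP control (0.0207%), and for 1, Dicer1, in the mix group versus WT control (3.42%). Counts of members near these backgrounds say nothing particular about the machinery. WT control and APP control each enter more than 1 of these comparisons, so the comparisons are not independent.

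Xpo5 (ENSMUSG00000067150, chr17:46202782-46243598, plus strand), the export receptor of precursor hairpins, was the member with the lowest adjusted p against WT control. In WT control its normalized read counts were 1887 at the lowest, 2056 at the median and 2073 at the highest. In APP control they were 1856, 1899 and 1934, and those of the mix group were 1706, 1860 and 1978. All WT control libraries but WT control 5, which held the 1887, lay between 2034 and 2073 and above all 13 transgenic libraries. From WT control to the mix group Xpo5 fell by 9.16% (log2 fold change -0.14, SE 0.039, 95% interval -0.21 to -0.063, DESeq2 adjusted p = 0.007). For APP versus WT control its log2 fold change was -0.098 (SE 0.040), with an adjusted p of 0.167. The difference between the mix group and APP control, with a log2 fold change of -0.041 (95% interval -0.12 to 0.035, adjusted p = 1.0), was not past the threshold, so the call against WT control is not shown to come from the inhibitors.

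The Xpo5 call was past the threshold in 29 of 30 alternative analyses. Here and for the genes below, the alternatives share data and are not independent checks. Those that leave out an APP control library keep both groups of this comparison whole. The exception for Xpo5 was edgeR, which gave a log2 fold change of -0.13 with an adjusted p of 0.0672. The adjusted p ran from 0.00117 to 0.0672 over all 30 alternatives. Without WT control 5 and mix library 6, those highest in choroid plexus genes, the log2 fold change was -0.15. The deposited normalized table holds a whole number from 1 to 5 for each library, whose meaning the sources do not give. Within the 4 numbers that both groups share, with 1 or 2 libraries a group in each, the log2 difference was -0.11, -0.095, -0.16 and -0.12, and with the number as a factor it was -0.13 (adjusted p = 0.0120). Within groups, Xpo5 had a correlation of -0.59 with the choroid plexus score, 0.52 with CA1, -0.46 with the dentate gyrus, -0.37 with astrocytes, -0.37 with endothelium, -0.35 with CA3, -0.16 with microglia, 0.076 with oligodendrocytes and 0.073 with neurons, and of -0.65 with the mitochondrial share of counts over the 19 libraries. The mitochondrial share averaged 3.70% in WT control (SD 0.640), 3.85% in APP control (SD 0.759) and 4.01% in the mix group (SD 0.811), and its part in the difference was not tested. The part of the dentate gyrus score, higher at the median in both transgenic groups, was not tested either.

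Dicer1 (ENSMUSG00000041415, chr12:104687742-104751952, minus strand), the nuclease that makes the mature duplex, was close to the threshold against WT control. Its lowest, median and highest normalized counts were 2636, 2680 and 2844 in WT control and 2345, 2610 and 2792 in APP control. In the mix group they were 2446, 2520 and 2611. The 7 inhibitor-treated libraries all lay below the 6 WT control libraries, and APP control overlapped both groups. The log2 fold change of Dicer1 in the mix group versus WT control was -0.10 (SE 0.038, 95% interval -0.18 to -0.026, adjusted p = 0.0738), and it did not pass the test. It passed when only these groups were fitted (adjusted p = 0.0181) and when APP control 2 (adjusted p = 0.0256) or APP control 6 (adjusted p = 0.0383) was left out, libraries of neither group compared. Over all 30 alternatives the value ran from -0.11 to -0.060, the latter in limma on the deposited table (adjusted p = 0.287). Against APP control the log2 fold change was -0.037 (95% interval -0.11 to 0.037). Dicer1 holds 2 TGCACTG matches and is listed as a predicted target of miR-148a-3p.

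Tarbp2 (ENSMUSG00000023051, chr15:102518192-102523676, plus strand), the Dicer1 partner, had the lowest counts of the 10. Those of WT control ran from 361.0 to 478 with a median of 432, those of APP control from 391 to 494 (median 432) and those of the mix group from 383 to 469 (median 419). The groups overlapped almost completely. Log2 fold changes were 0.044 for APP versus WT control and -0.036 for the mix group versus APP control (SE 0.078 and 0.074).

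The microprocessor genes did not pass in any comparison. The normalized counts of Drosha ran from 3925 to 4696 among WT control libraries (median 4424), 3752 to 4473 among those of APP control (median 4048) and 3696 to 4354 among those of the mix group (median 4105). Its log2 fold change was -0.088 for APP versus WT control (SE 0.059, adjusted p = 0.562) and 0.0015 for the mix group versus APP control (95% interval -0.11 to 0.11). For the mix group versus WT control it was -0.087 (SE 0.056, adjusted p = 0.422). Without WT control 1 and 5, the highest of their group in glial genes, the values of Drosha versus WT control were -0.15 in both groups (adjusted p = 0.0840 for APP control and 0.0547 for the mix group), and with the number per library as a factor that of APP control was -0.043. The wild-type libraries reached higher than the others, but the lowest of them lay within the transgenic range. Dgcr8 ran from 814 to 939, from 749.7 to 1040 and from 798 to 889 in the same order of groups, with medians of 856, 825 and 833. The highest and the lowest of all 19 libraries, APP control 5 and APP control 4, were both in APP control. Its log2 fold changes were -0.0053 and -0.022 (95% intervals -0.15 to 0.14 and -0.16 to 0.12).

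The Argonautes, which hold the microRNA on its target, also stayed short of the threshold throughout. Ago1 (ENSMUSG00000041530) had 3752, 3869 and 4009 normalized counts at the lowest, median and highest in WT control, 3570, 3767 and 3845 in APP control and 3463, 3757 and 3872 in the mix group. It varied least of the 10 genes, with a coefficient of variation within groups of 3.25%, and its log2 fold changes were -0.053 (SE 0.034), -0.0091 (SE 0.032) and, against WT control in the treated mice, -0.062 (SE 0.033, adjusted p = 0.265). The groups overlapped. Ago2 (ENSMUSG00000036698) ran from 3842 to 4470 among WT control libraries (median 4070), 3572 to 4098 among those of APP control (median 3907) and 3555 to 4325 among those of the mix group (median 3979). Its log2 fold change was -0.085 (SE 0.057) for APP versus WT control and 0.036 (95% interval -0.071 to 0.14) for the mix group versus APP control, the largest positive value of the 10 in that comparison and within its error. When a library was left out the latter ran from 0.014 to 0.060, while that of Ago3 reached 0.072, so this rank is not settled. Ago2 and Ago3, with the longest 3′ UTRs, each held 6 seed matches in all.

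Ago3 (ENSMUSG00000028842) and Ago4 (ENSMUSG00000042500) were more variable. Ago3 ran from 2540.0 to 3094 among WT control libraries (median 2794), 2435 to 3233 among those of APP control (median 2643) and 2503 to 2973 among those of the mix group (median 2832). Ago4 ran from 557 to 626 (median 594), 539 to 687 (median 608) and 539 to 683 (median 616) in the same order. Both extremes of each gene lay in APP control, and WT control sat inside that range. Their log2 fold changes for the mix group versus APP control were 0.020 (95% interval -0.11 to 0.15) and -0.022 (-0.16 to 0.12), and for APP versus WT control -0.026 (SE 0.071) and 0.048 (SE 0.075).

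Tnrc6a (ENSMUSG00000052707, chr7:123123885-123195296, plus strand), the scaffold between Argonaute and the deadenylases, ran from 3289 to 4032 in WT control with a median of 3863. Libraries of APP control ran from 3446 to 3971 (median 3677) and those of the mix group from 3499 to 3934 (median 3712). The groups overlapped, and the lowest value of all was that of WT control 4, the highest of its group in the scores of CA1, dentate gyrus and neuronal markers. The log2 fold change was -0.041 (SE 0.054) for APP versus WT control and 0.025 (95% interval -0.077 to 0.13) for the mix group versus APP control.

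**Figure D3:**
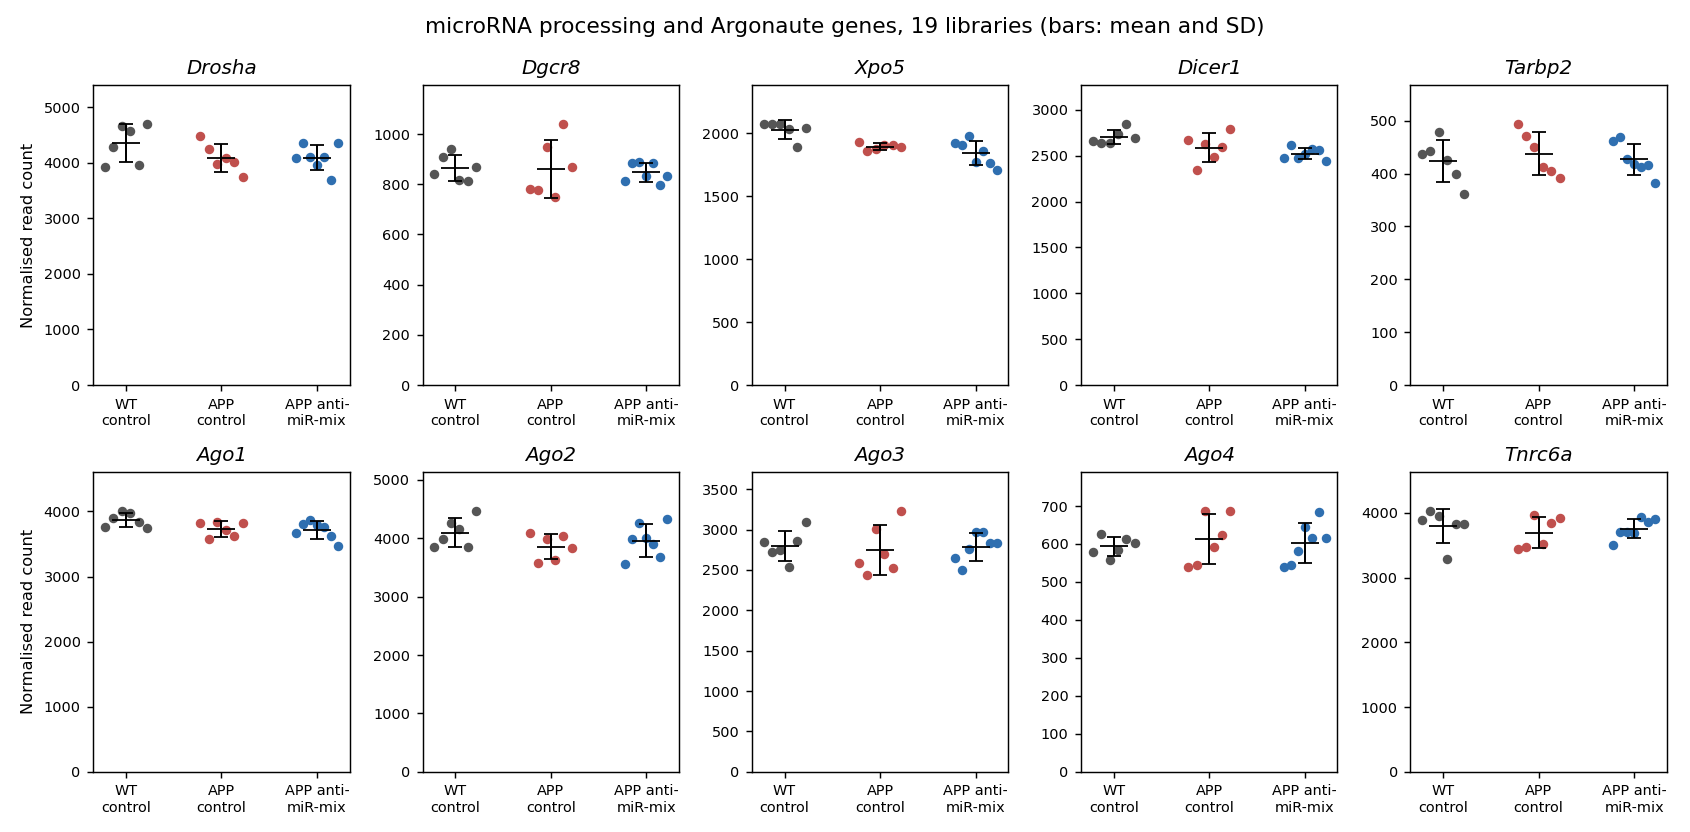
Normalized read count (y axis, from 0) of the 10 genes in each library of WT control, APP control and APP anti-miR-mix; points are libraries and bars the mean and SD. The groups overlap in every panel except that for Dicer1 all 7 APP anti-miR-mix libraries lie below the 6 WT control libraries.

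The intervals bound how large an effect of the inhibitors could be. For the mix group versus APP control the 95% intervals of the 10 genes lay between -0.18 and 0.15 on the log2 scale, that is, between -11.8% and 11.2%. A p that misses the threshold does not show that the groups were alike. The median log2 fold change of the 7 genes with a TGCACTG match was -0.0091 in this comparison, with 3 higher and 4 lower (Ago1 turned to the higher side with the replicate number as a block), and that of the 3 genes without it was -0.036. Over the tested genes with an annotated 3′ UTR the medians were -0.0002 for the 2290 with the match and -0.0027 for the 13107 without. The 3 genes with TGAATGT had a median of 0.020 and the other 7 of -0.022, beside 0.0015 for the 2780 tested genes that hold it and -0.0032 for those without. For AGTTCTC the medians were 0.014 for the 2 genes that hold it and -0.022 for the other 8, beside 0.0037 and -0.0032 over the tested genes. Of the tested genes with and without the match, 52.7% and 48.1% were on the higher side for AGTTCTC, 49.9% and 48.4% for TGCACTG and 50.9% and 48.2% for TGAATGT. In APP versus WT control, which shares APP control, the shares were 37.5% and 46.3% for AGTTCTC, 38.5% and 46.3% for TGCACTG and 36.2% and 47.1% for TGAATGT. In the same order, those of the mix group versus WT control were 40.1% and 45.4%, 40.1% and 45.6%, and 38.0% and 46.3%. These medians and shares over the tested genes were not matched for 3′ UTR length, and what sets them apart was not tested. For the 6 predicted targets the median was -0.015 and for the other 4 genes -0.017. In APP versus WT control the median of the 10 genes was -0.047 with 8 lower, of which Dgcr8 turned higher in DESeq2 with TMM size factors and with the number per library as a factor, and Dgcr8 and Ago3 in limma on the deposited table, while 54.4% of all tested genes were lower with a median of -0.012.

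**Figure D4:**
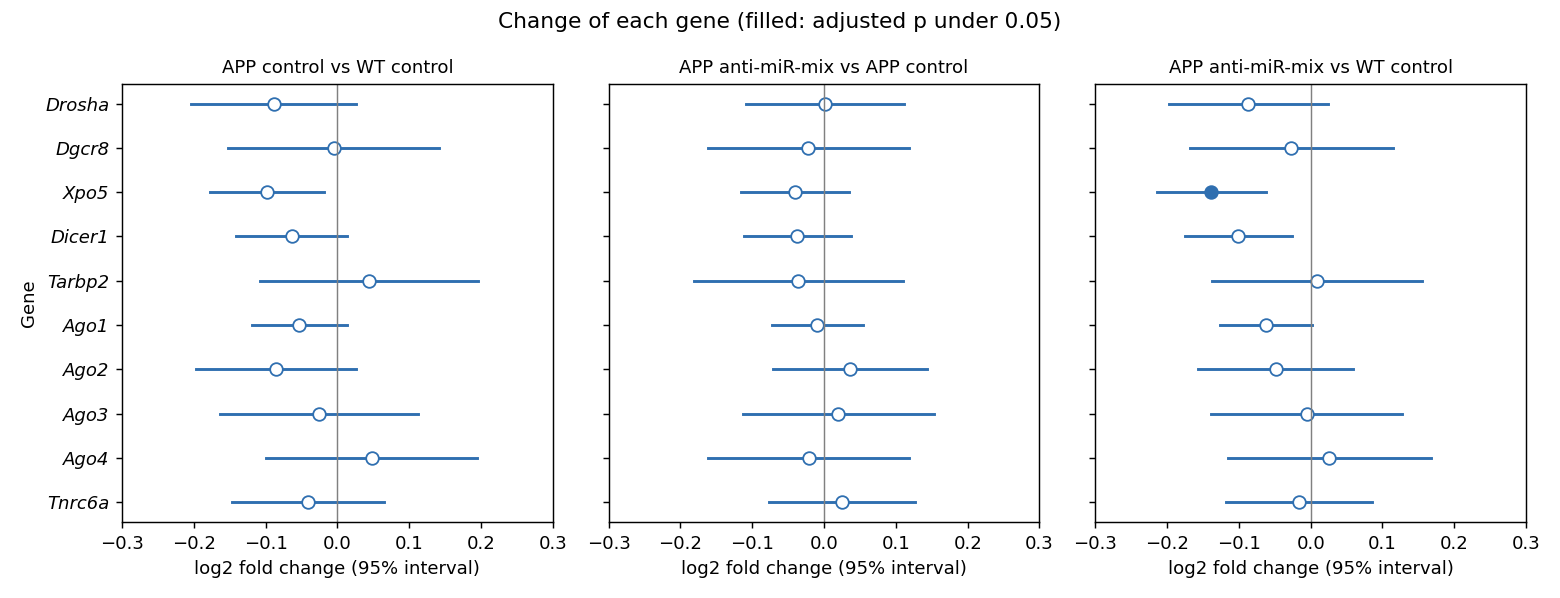
Log2 fold change (x axis) of each gene in the 3 comparisons, named above each panel with the first group relative to the second; lines are 95% intervals and filled points have an adjusted p under 0.05. Xpo5 in the comparison of APP anti-miR-mix with WT control (-0.14) is the only filled point, and every interval of the middle panel includes 0.

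A wider list of 65 genes covered the partners of this machinery, and 64 were tested, all but Lin28a. Against WT control APP control had 1 gene higher and 2 lower, and the mix group also 1 higher and 2 lower, beside 3.66% and 1.05% of all genes in the first comparison and 5.59% and 3.36% in the second. The mix group versus APP control had 0 called by DESeq2, with 2 at an unadjusted p under 0.05. In APP control 51 of the 64 were lower than in WT control, with a median log2 fold change of -0.021, and in the mix group 45 of the 64 with a median of -0.026, beside 54.4% of all tested genes in each comparison (medians -0.012 and -0.015). These tallies depended on the processing: with TMM size factors they were 43 and 38 of 64. They were 30 and 26 in limma on the deposited table, with medians above 0 (0.0088 and 0.017). That analysis changes the test and the values as well as the scaling, so it cannot show which of them matters. The 54.4% is that of the main fit only. By step in APP control, in the main fit, 6 of 10 genes of nuclear processing, 4 of 4 export and dicing partners, 10 of 14 loading and silencing partners, 21 of 24 genes of deadenylation and decay and 10 of 12 of tailing and turnover were on the lower side, called or not. The predicted target list holds 19 of the 65 genes and 6 of the 10, beside 8.72% of all tested genes, and none of them was called. These shares were not set beside genes of like 3′ UTR length.

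The genes called in this wider list were Cnot1, Hsp90aa1, Pabpc1 and Zc3h12a. Cnot1, the scaffold of the CCR4-NOT deadenylase, had 3942, 4240 and 4447 normalized counts at the lowest, median and highest in WT control, 3420, 3886 and 4069 in APP control and 3600, 3773 and 4021 in the mix group. The groups overlapped, but the median of WT control lay above every library of the others. Cnot1 fell from WT control to the mix group (log2 fold change -0.16, SE 0.044, adjusted p = 0.00743), a call that held in all 30 alternatives with adjusted p from 0.000993 to 0.0454. In APP control the log2 fold change was -0.14 (adjusted p = 0.0444), and the call was lost in 5 settings other than leaving a library out, among them edgeR (0.115), and in 14 of the 19 analyses that leave out a library, all but those without WT control 1, APP control 5 or 6, or mix library 1 or 3. Hsp90aa1, the inducible cytosolic HSP90 whose chaperone activity helps load Argonaute, had means of 3975 in WT control (SD 257), 3500 in APP control (SD 289.9) and 3501 in the mix group (SD 188). Its log2 fold change was -0.18 against WT control in both groups (adjusted p = 0.0434 and 0.0204), and both calls were lost in edgeR (0.0907 and 0.0596) and without the choroid plexus libraries. The first was also lost when only those groups were fitted, with the number per library as a factor, in limma on the deposited table and in 12 of the 19 analyses that leave out a library, all but those without WT control 1 or 2, APP control 6, or mix library 1, 2, 4 or 7, and the second without WT control 3, 4 or 6 or mix library 1 or 4.

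Pabpc1, the cytoplasmic poly(A)-binding protein with which Tnrc6a interacts, was higher in the mix group than in WT control. Its means were 2350 in WT control (SD 127), 2684 in APP control (SD 145) and 2707 in the mix group (SD 259). The log2 fold change against WT control was 0.20 in the mix group (SE 0.063, adjusted p = 0.0181), lost without WT control 2 or 3 or mix library 4 or 5, with adjusted p up to 0.0574. It was 0.19 in APP control (adjusted p = 0.0628, not past the threshold). Pabpc1 and Hsp90aa1 have near-identical copies in the genome, and how reads shared with them were counted is not given, so their levels are uncertain. Zc3h12a (Regnase-1), an endonuclease of inflammatory messages and precursor microRNAs, rose from 52.4 to 77.2 normalized counts in APP control (SD 12.1 and 13.8, log2 fold change 0.55, SE 0.17, adjusted p = 0.0294). In the mix group its mean was 72.5 (SD 12.5), with a log2 fold change of 0.46 against WT control and an adjusted p of 0.0530. This call was lost in edgeR (adjusted p = 0.0665), with the number per library as a factor, without the choroid plexus libraries and without any of WT control 2, 3, 4, 5 or 6 or APP control 2 or 5.

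The 10 genes did not move as a unit from library to library. Over the 19 libraries the Pearson correlations of log2 normalized counts among their 45 pairs ran from -0.61 to 0.69 with a median of 0.23, and 32 were above 0. The points share groups, depth and library preparation, so these values are descriptions. The highest was between the neighbours Ago3 and Ago4 (0.69), followed by Xpo5 and Ago1 (0.67) and Dicer1 and Ago1 (0.61), while Ago1 had 0.13 with Ago3 and -0.051 with Ago4 in the same cluster. With group means removed, Xpo5 and Dicer1 had 0.50 and 0.44 with Ago1, below Ago4 with Tnrc6a (0.617) and Dgcr8 with Tnrc6a (0.615). Drosha and its partner Dgcr8 had 0.034, and Dicer1 and its partner Tarbp2 -0.21. Drosha ran opposite to Ago4 (-0.61), and so did Tarbp2 to Ago3 (-0.60).

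The spread of 4 of the genes moved with the mitochondrial share of each library. Within groups, the correlation with that share over the 19 libraries was -0.86 for Tarbp2, -0.65 for Xpo5, 0.61 for Ago3 and 0.76 for Ago4, and with the whole number per library -0.88, -0.59, 0.50 and 0.67. Dgcr8 and Ago2 had -0.0086 and 0.049 with the mitochondrial share. The range of the share was similar in the groups, 2.97% to 4.58% for WT control, 2.86% to 4.58% for APP control and 2.84% to 4.87% for the mix. Why these quantities move together was not tested. With the whole number as a factor, DESeq2 called 0 of 10 genes for the mix group versus APP control and 1 of 10, Xpo5, versus WT control, as without it.

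**Figure D5:**
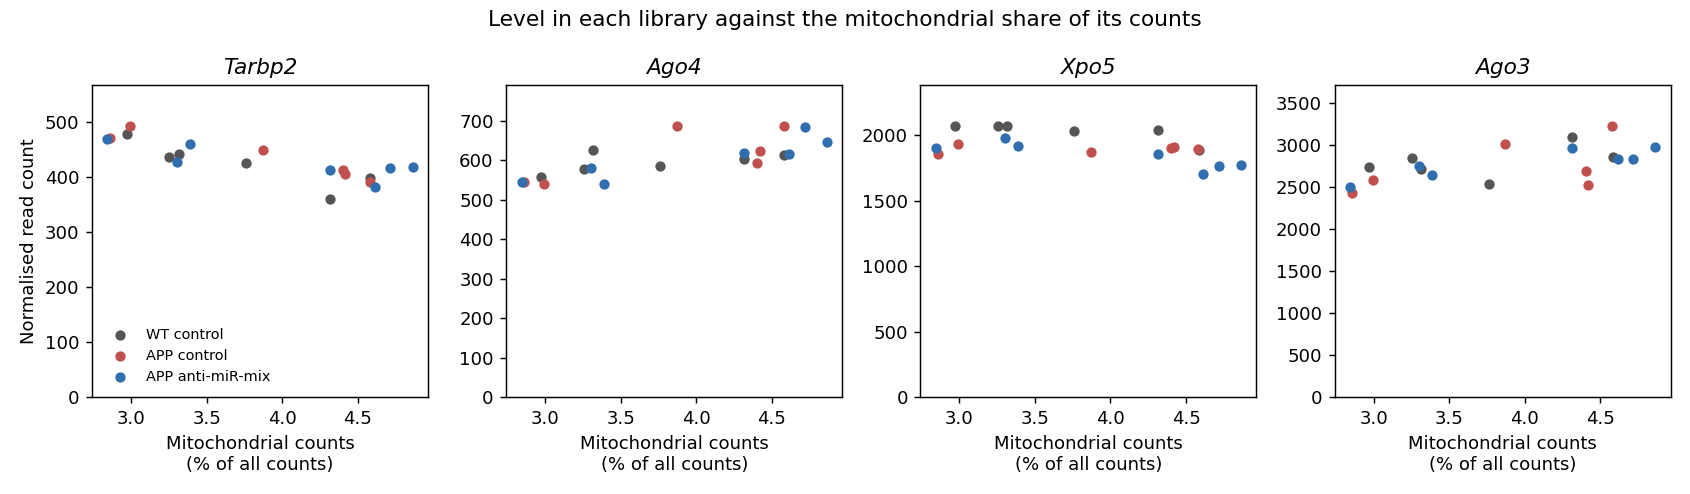
Normalized read count (y axis, from 0) of Tarbp2, Ago4, Xpo5 and Ago3 in each library against the share of its counts from mitochondrial genes (x axis, percent); points are libraries and colours the 3 groups. Tarbp2 and Xpo5 are lower and Ago3 and Ago4 higher in libraries with a larger share (correlations within groups of -0.86, -0.65, 0.61 and 0.76).

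The tested genes whose counts ran most like 3 of the members were looked up. Over the 19 libraries the 3 tested genes most like Ago2 were Atxn2 (r = 0.84), Ints10 (0.81) and Map1b (0.80), and with group means removed the values were 0.81, 0.81 and 0.82. Those most like Dicer1 were Setbp1, Frmpd4 and Hnrnpul2 (0.86, 0.86 and 0.85), for which the values with group means removed were 0.84, 0.78 and 0.78. For Drosha they were Ctnnd2, the pseudogene Gm15422 and Tenm4 (0.95, 0.92 and 0.92), and 0.94, 0.91 and 0.90 with group means removed. These are the highest among all tested genes, chosen for being so, and describe only these libraries. With the scores of the marker lists, the strongest correlations within groups were -0.72 for Tnrc6a with CA1, -0.70 for Dgcr8 with microglia, -0.67 for Ago2 with oligodendrocytes, 0.64 for Dicer1 with CA3 and 0.64 for Drosha with neurons. Ago2 also had -0.63 with astrocytes and 0.60 with neurons, and Ago4 had -0.62 with CA1.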

How the data were processed

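RNA-seq of CA1 tissue was available for 19 libraries, sequenced single-end after TruSeq RNA v2 preparation. Raw read counts per gene were deposited for each library; per the labels, the authors checked reads with FastQC 0.11.5, aligned them to mm10 with STAR 2.5.2b and counted them with featureCounts of Subread 1.5.1. The annotation release and the strand setting are not given in the sources used here. A normalized table of 18825 genes was also deposited on a log2 scale; it equals log2(CPM + 1) plus a whole number per library times a slope per gene, a form found from its values, and was used for limma as an alternative and as the source of the whole number per library. The study's target list was read for gene names only.

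The 10 genes, the wider pathway list and the markers were chosen with earlier results of these data known. Identifiers were named through GENCODE M21 (48349 of 48709). A gene was kept where 50% or more of the 19 libraries had 5 or more counts, and the 19297 kept were fitted with DESeq2 1.42.0 (Wald test, both directions, all 3 groups in 1 fit), with Benjamini-Hochberg adjustment over all of them and a threshold of 0.05; intervals are 95%. Normalized counts are counts divided by DESeq2 size factors. TPM used the union of annotated exons. Correlations used log2(normalized count + 1). edgeR 4.0.16 and limma 3.58.1 were alternatives, with other filters and scalings, fewer libraries, a replicate block and the number per library as a factor, 30 in all. The fits were tested on simulated data. Totals ran from 19362343 to 37018917 counts. Seed matches were searched in 3′ UTRs derived from the annotation. Named were all 10 genes, pathway genes past the threshold, and the 3 genes most like each of Ago2, Dicer1 and Drosha. Tools were R 4.3.3 and Python 3.11.15.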

Additional observations from a re-analysis of the deposited data

Results flagged for a closer look

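In 2 of the 30 sets of libraries examined, 10 genes in each of 3 groups, a library lay far from the others of its group by Dixon's criterion, where chance gives about 1 in 20, or 1.5 of 30. Xpo5 had 1887 normalized counts in WT control 5, below the other WT control libraries at 2034 to 2073. That library was also the highest of its group in choroid plexus, astrocyte, endothelium and CA3 scores and in mitochondrial share (4.58%). Without it the log2 fold change of Xpo5 in the mix group versus WT control was -0.16. Tnrc6a had 3289 normalized counts in WT control 4, below the others at 3827 to 4032. When a library was left out, the log2 fold change of Tnrc6a in APP versus WT control ran from -0.0792 to -0.0216.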

How the results depend on the processing

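Over 30 alternatives, 0 of the 10 genes was called in APP versus WT control or in the mix group versus APP control. In the mix group versus WT control 1 was called, except for 0 with edgeR and 2 when only these groups were fitted, and 1 to 2 when a library was left out. Of the wider pathway list, 3 genes in APP versus WT control became 0 with edgeR, with the number per library as a factor or without the choroid plexus libraries, and 0 to 5 when a library was left out. The 3 in the mix group versus WT control became 6 with the replicate block, 5 with limma on the deposited table, and 1 to 5 when a library was left out.

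Signs turned for values near 0, none of them called. With the replicate block, the mix group versus APP control gave -0.0141 for Drosha and 0.007 for Ago1. With the number per library as a factor, the value of Drosha was -0.0075 in that comparison, that of Dgcr8 in APP versus WT control 0.0014, and those of Tarbp2 and Ago3 in the mix group versus WT control -0.0072 and 0.0042. With TMM size factors Dgcr8 had 0.0002 in APP versus WT control, and Ago3 0.0054 in the mix group versus WT control (0.0053 in edgeR). With limma on the deposited table Dgcr8 and Ago3 had 0.0164 and 0.0019 in APP versus WT control, and Dgcr8, Ago3 and Tnrc6a 0.0113, 0.0349 and 0.0252 in the mix group versus WT control. Tarbp2 had -0.0025 there without the choroid plexus libraries and -0.001 without WT control 1 and 5, the highest in glial genes, where Ago3 had 0.0079. The cause was not tested.

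When a library was left out, 12 of the 30 values crossed 0. For the mix group versus APP control the ranges were -0.022 to 0.0283 for Drosha, -0.0584 to 0.0403 for Dgcr8, -0.0663 to 0.0011 for Tarbp2, -0.0218 to 0.0071 for Ago1, -0.0127 to 0.0723 for Ago3 and -0.0561 to 0.0145 for Ago4. In APP versus WT control they were -0.0664 to 0.0319 for Dgcr8 and -0.0777 to 0.0073 for Ago3, and in the mix group versus WT control -0.0318 to 0.0464 for Tarbp2, -0.0321 to 0.0259 for Ago3, -0.0051 to 0.0512 for Ago4 and -0.0546 to 0.0013 for Tnrc6a.

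Same-numbered libraries were correlated at -0.16 to 0.59 over 18 pairs, 12 of them over 0.1, and 7 of 18 libraries correlated best with their own number. Since not every pair was over 0.1 and the labels tie no number to a shared origin, the libraries were not treated as paired, though part of them may share more than a number: the whole number per library never fell as the replicate number went up, in any group. With the replicate number as a block the log2 fold change of Xpo5 in the mix group versus WT control was -0.12 (DESeq2 adjusted p = 0.0277).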
